A study of Mus musculus with 12 samples.

Results

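The 5 SOXB transcription factor genes were followed by symbol through a table of 24736 genes, in mouse epiblast-like cells that differed in WNT pathway activation and in SOX2. Sox1, Sox2 and Sox3 form the SOXB1 group, and Sox14 and Sox21 form the SOXB2 group. Poly(A) RNA was sequenced from 12 cultures after 72 h of differentiation from embryonic stem cells, with 3 biological replicates in each of 4 groups. All cultures received bFGF at 10 ng/ml and LGK974, an inhibitor of WNT secretion, at 5 µM. EpiLC were wild type and received nothing further, while CEpiLC were wild type and were exposed from day 2 to day 3 to CHIR99021, a GSK3 inhibitor that activates the WNT pathway. SOX2-OFF and SOX2-ON were given CHIR99021 on the same schedule and were made with a TetON clone whose endogenous Sox2 was inactivated (Sox2-/-) and whose Hprt locus carries a doxycycline-inducible Sox2 cDNA. Doxycycline was withdrawn from SOX2-OFF for the differentiation and kept at 1 µg/ml in SOX2-ON.

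The TetON line was a picked clone, edited in cells that express the reverse tetracycline transactivator from Rosa26. According to the paper, this parent line (HM1 TetON) also served as the wild-type control. All lines were grown on fibroblast feeders before differentiation. SOX2-ON and SOX2-OFF differed in doxycycline as well as in the transgene, and no wild-type culture with doxycycline was analysed here, so the effects of the drug and of SOX2 cannot be told apart in these libraries. Comparisons of either TetON group with EpiLC or CEpiLC also crossed lines. The Sox2 count joins reads from the endogenous locus and from the transgene.

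SOX proteins bind DNA through an HMG box, which recognizes a short A/T-rich element in the minor groove. SOXB1 proteins carry an activation domain, usually act with a partner factor such as OCT4 in pluripotent cells, and maintain pluripotent and neural progenitors with overlapping functions. SOXB2 proteins bind the same element but carry a repression domain, and they are known from neurogenesis, where they counteract SOXB1 activity.

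Libraries held 10408252 to 27337740 expected counts. Levels are given in TPM (transcripts scaled by length and to a fixed library total). The 5 epiblast markers summed to 2360 to 2778 TPM in EpiLC and to 822 to 1423 TPM in the other groups, where Pou5f1 carried most of the sum. The other 4 (Otx2, Pou3f1, Fgf5 and Dnmt3b) were called lower than in EpiLC in each of the 3 comparisons (20.1 to 30.6% of all genes). Feeder fibroblast markers summed to 40.8 to 58.4 TPM for EpiLC and 59.8 to 88.4 for CEpiLC. They summed to 21.2 to 41.1 TPM for SOX2-OFF and 22.6 to 42.4 for SOX2-ON, both below CEpiLC. The summed level of 7 caudal epiblast and streak markers was 1.52 to 2.54 TPM for EpiLC, 1409 to 1608 for CEpiLC, 968 to 983 for SOX2-OFF and 247 to 295 for SOX2-ON. Markers of another lineage moved with the line. Of 9 extraembryonic endoderm markers, 8 were tested. For SOX2-OFF against CEpiLC 7 were called higher (23.6% of all genes), and 7 were also higher in SOX2-ON than in CEpiLC (27.9%). Their summed level was 9.24 to 12.8 TPM for EpiLC, 8.73 to 21.1 for CEpiLC, 284 to 326 for SOX2-OFF and 120 to 333 for SOX2-ON, with replicate 3 of SOX2-ON highest, and Ttr was at 0 in all CEpiLC libraries. The part of these markers in the SOXB differences between lines was not tested. In bulk samples, fewer cells that express a gene and less RNA per cell cannot be told apart.

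Each member has a single exon in the GENCODE annotation of GRCm38. The coding lengths were 1173 bases for Sox1, 957 for Sox2, 1350 for Sox3, 720 for Sox14 and 828 for Sox21. The stretch of coding sequence in which Sox1 and Sox2 were most alike over the length of 1 read (76 bases) is shown for all members, because it shows how far the reads can separate these genes; capitals mark the 63 bases that all 5 members share.
Sox1 (chr8:12396518-12396593, plus strand): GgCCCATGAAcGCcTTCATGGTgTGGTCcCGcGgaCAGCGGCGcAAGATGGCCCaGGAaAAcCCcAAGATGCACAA
Sox2 (chr3:34650549-34650624, plus strand): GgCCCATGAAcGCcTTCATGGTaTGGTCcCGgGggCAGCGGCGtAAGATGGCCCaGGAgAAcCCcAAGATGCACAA
Sox3 (chrX:60892919-60892994, minus strand): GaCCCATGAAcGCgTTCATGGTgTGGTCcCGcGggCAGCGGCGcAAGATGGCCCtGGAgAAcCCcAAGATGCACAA
Sox14 (chr9:99875581-99875656, minus strand): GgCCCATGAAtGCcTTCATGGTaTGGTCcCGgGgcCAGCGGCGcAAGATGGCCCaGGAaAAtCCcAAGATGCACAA
Sox21 (chr14:118235532-118235607, minus strand): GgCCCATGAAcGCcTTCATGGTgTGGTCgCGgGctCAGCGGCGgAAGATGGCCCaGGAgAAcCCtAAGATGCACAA
Within this window Sox2 differed from Sox1 and from Sox14 by 5 bases each, and from Sox3 and from Sox21 by 6 each. Over all windows in the same register, the closest pairs were Sox1 with Sox3 and Sox2 with Sox21, at 3 differences of 76 bases (96.1% identity). No 76-base window of Sox2, Sox3, Sox14 or Sox21 occurred in a transcript of another gene. For Sox1, 11 of 4757 windows did, all in Gm25239. Member counts were whole numbers in 11 of the 12 libraries. The exception was replicate 1 of EpiLC, in which Sox1 held 163.02 and Sox2 4352.98 expected counts, together 4516.

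The 5 genes followed different courses across the 4 groups, as seen in the plot of levels by library. Sox2 was high in EpiLC and SOX2-ON and low in CEpiLC and SOX2-OFF, Sox3 fell step by step from EpiLC to SOX2-OFF, Sox1 was low throughout and lowest in SOX2-OFF, and Sox14 and Sox21 were highest in SOX2-ON.

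**Figure D1:**
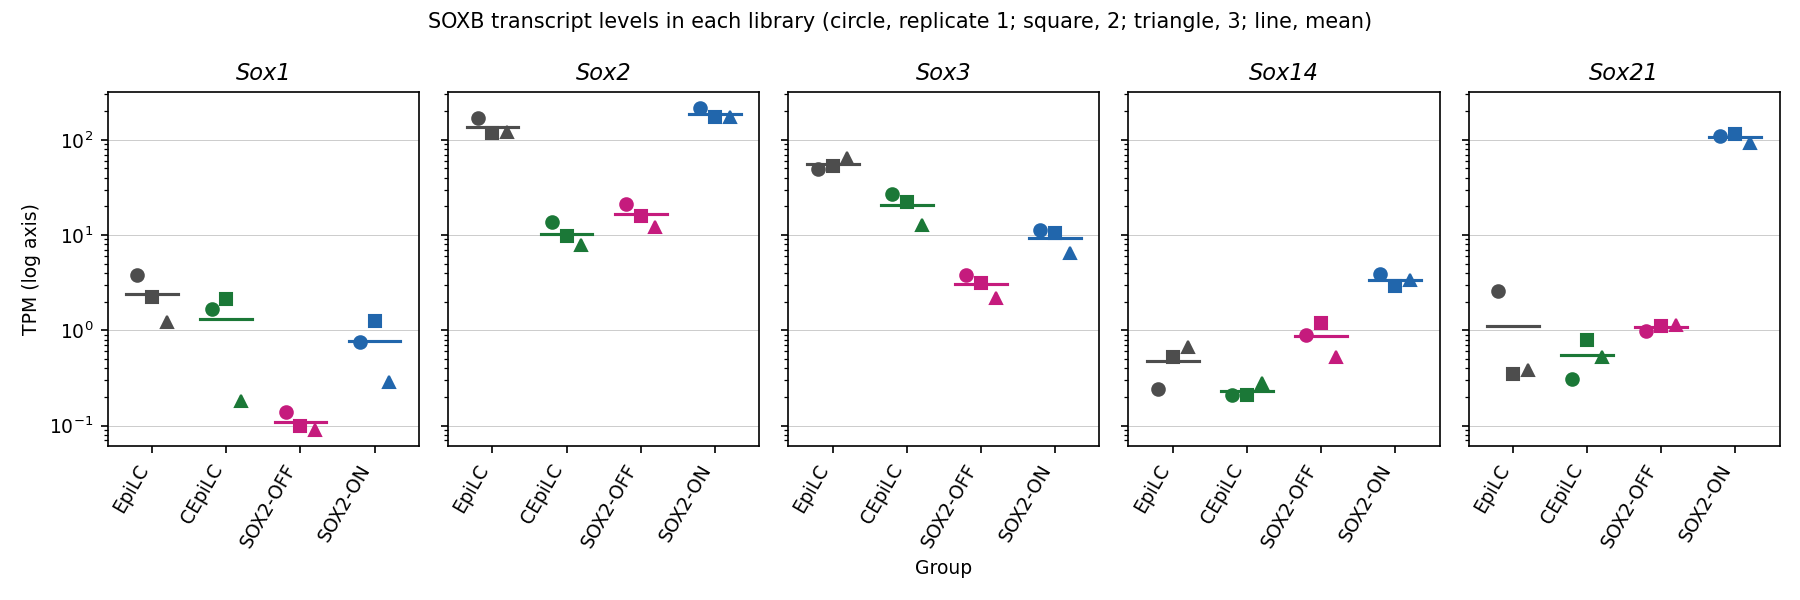
TPM on a log axis for the 5 SOXB genes in each of the 12 libraries, with a symbol for each replicate and a line at the group mean (n = 3). Sox21 was at 93.6 to 116 TPM in the SOX2-ON libraries and at 2.6 TPM or less in the other 9, whereas Sox3 was lowest in SOX2-OFF, at 2.2 to 3.81 TPM.

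Sox1 marks early neural progenitors and lies at chr8:12395519-12399555, plus strand (RefSeq, GRCm38.p6). Replicates 1, 2 and 3 held 3.78, 2.23 and 1.22 TPM for EpiLC, 1.67, 2.11 and 0.18 for CEpiLC, 0.14, 0.10 and 0.09 for SOX2-OFF, and 0.76, 1.26 and 0.29 for SOX2-ON. The third replicate was the lowest in all 4 groups, and in CEpiLC it held only 4 counts, near the 5, 4 and 2 counts of the SOX2-OFF libraries. The order of mean levels was EpiLC (2.41 ± 1.29 TPM, SD, n = 3), CEpiLC (1.32 ± 1.01), SOX2-ON (0.77 ± 0.485) and SOX2-OFF (0.11 ± 0.026). EpiLC and CEpiLC were not called apart in the model without a block (log2FC -0.80, SE 0.56, edgeR adjusted p = 0.268). With the replicate number as a block, which treated same-numbered libraries as pairs, Sox1 was called lower in CEpiLC (log2FC -0.95, edgeR adjusted p = 0.0343). Whether Sox1 differed here thus depended on the block. CEpiLC and SOX2-ON did not differ at the threshold either (log2FC -0.90, 95% interval -2.22 to 0.42, edgeR adjusted p = 0.23), and without replicate 3 of CEpiLC Sox1 was called lower in SOX2-ON (log2FC -1.31, edgeR adjusted p = 0.0354).

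SOX2-OFF was lower in Sox1 than CEpiLC by 11.8-fold (log2FC -3.57, SE 0.85, edgeR adjusted p = 0.0037) and lower than EpiLC by 20.7-fold (log2FC -4.37, SE 0.82, edgeR adjusted p = 4.4e-04), with no overlap. SOX2-ON exceeded SOX2-OFF with no overlap (log2FC 2.67, SE 0.92, edgeR adjusted p = 0.0444). That call was lost by limma-voom (adjusted p = 0.181) and when any 1 of 5 libraries was left out (replicate 1, 2 or 3 of SOX2-OFF, or replicate 1 or 2 of SOX2-ON), with adjusted p from 0.0838 to 0.154. SOX2-ON was called lower than EpiLC (log2FC -1.70, edgeR adjusted p = 0.0248), with overlapping values, and the call was lost without replicate 1 of EpiLC (log2FC -1.20, adjusted p = 0.136), replicate 1 of SOX2-ON (adjusted p = 0.0619) or replicate 3 of SOX2-ON (adjusted p = 0.085). Genes of chromosome 8 were shifted upward as a whole in the TetON line, by a median of 0.60 on the log2 scale for SOX2-OFF against CEpiLC and 0.60 for SOX2-ON against CEpiLC. With that shift taken out, Sox1 read a log2FC of -4.16 in SOX2-OFF and -1.50 in SOX2-ON against CEpiLC (edgeR adjusted p = 0.0017 and 0.0585). Chromosomes 6 and 11 were shifted too, by medians of 0.57 and -0.52 for SOX2-OFF and 0.57 and -0.54 for SOX2-ON against CEpiLC.

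Sox2, a core pluripotency factor and the gene manipulated in the study, lies at chr3:34649995-34652461, plus strand (RefSeq, GRCm38.p6). The transgene differs from the locus by G54A, where positions are counted from the A of the start codon. The study introduced this silent change to remove the motif that the guide RNA needs next to its target. The reference and the mutagenesis primer are shown over coding positions 40 to 66 with the changed base in capitals, because this base is what separates the transcripts in sequence and the count table does not resolve it.
Sox2 reference (chr3:34650455-34650481, plus strand): ccgcagcaagcttcGgggggcggcggc
Sox2 transgene primer: ccgcagcaagcttcAgggggcggcggc
Replicates 1, 2 and 3 held 171, 119 and 121 TPM of Sox2 for EpiLC, 13.7, 9.66 and 7.78 for CEpiLC, 21.2, 16.0 and 12.3 for SOX2-OFF, and 215, 173 and 174 for SOX2-ON. Replicate 1 was the highest in each group. SOX2-OFF libraries thus retained reads of the Sox2 gene in cells whose label is Sox2-/-, and whether these come from the inactivated locus or from the transgene without doxycycline was not tested. The order of mean levels was SOX2-ON (187 ± 24.0 TPM, SD, n = 3), EpiLC (137 ± 29.7), SOX2-OFF (16.5 ± 4.48) and CEpiLC (10.4 ± 3.01). EpiLC lay 8.13-fold above SOX2-OFF and 12.7-fold above CEpiLC (edgeR adjusted p = 1.2e-07 and 7.4e-08). Between SOX2-ON and EpiLC the difference was not called (log2FC 0.42, 95% interval 0.01 to 0.83, edgeR adjusted p = 0.0711). The lowest SOX2-ON library (173 TPM) lay just above the highest EpiLC library (171 TPM), while in counts scaled by TMM the groups overlapped. The difference was called without replicate 1 of EpiLC (log2FC 0.63, edgeR adjusted p = 0.0146), with only those 6 libraries fitted (log2FC 0.42, adjusted p = 0.0324) and by limma-voom (log2FC 0.43, adjusted p = 0.0286). With the replicate number as a block it was called too (log2FC 0.44, edgeR adjusted p = 2.5e-04), although pairing by number was left undecided for these groups. SOX2-OFF and CEpiLC overlapped and were called apart at log2FC 0.65 (edgeR adjusted p = 0.0367), a call that was lost without SOX2-OFF replicate 1 (log2FC 0.44, adjusted p = 0.183), SOX2-OFF replicate 2 (adjusted p = 0.0653), CEpiLC replicate 2 (adjusted p = 0.111) or CEpiLC replicate 3 (adjusted p = 0.0993). It was also lost by limma-voom (adjusted p = 0.102) and with chromosome-wide shifts between lines taken out (log2FC 0.59, edgeR adjusted p = 0.0642).

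Sox2ot, a long noncoding RNA gene that encloses Sox2 on the same strand (chr3:34560381-34677993, RefSeq, GRCm38.p6), has no exon base in common with Sox2 in the annotation and is not part of the cDNA transgene. Its counts in replicates 1, 2 and 3 were 8, 10 and 6 for EpiLC, 2, 3 and 1 for CEpiLC, 1, 0 and 1 for SOX2-OFF, and 30, 39 and 15 for SOX2-ON. SOX2-ON was the highest group in each replicate, with no overlap. Relative to library totals, SOX2-ON held 35.8 times the Sox2ot of SOX2-OFF (84 against 2 counts in all, exact 95% interval for counting error 9.6 to 300.3) and 3.48 times that of EpiLC (2.19 to 5.73). By edgeR Sox2ot was higher in SOX2-ON than in EpiLC (log2FC 1.78, adjusted p = 0.00208) and lower in CEpiLC than in EpiLC (log2FC -2.02, adjusted p = 0.0192). The filter on low counts asked for 0.553 CPM in 3 libraries, and Sox2ot reached this level only in the SOX2-ON libraries. It was thus tested only because of the group in which it was highest, and its p-values for that group are no independent support. Counts of Sox2ot were low in absolute terms, at 1.06 ± 0.461 TPM in SOX2-ON.

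Sox3, the X-linked SOXB1 gene that shares functions with Sox2 in the epiblast, lies at chrX:60891366-60893430, minus strand (RefSeq, GRCm38.p6). Replicates 1, 2 and 3 held 49.0, 53.0 and 63.7 TPM for EpiLC, 26.9, 22.1 and 12.8 for CEpiLC, 3.81, 3.13 and 2.20 for SOX2-OFF, and 11.3, 10.5 and 6.53 for SOX2-ON. The groups did not overlap in any of the 6 comparisons. Sox3 was the member for which each step of the order was called, from EpiLC (55.2 ± 7.58 TPM, SD, n = 3) through CEpiLC (20.6 ± 7.18) and SOX2-ON (9.42 ± 2.54) to SOX2-OFF (3.05 ± 0.808). The step from EpiLC to CEpiLC had a log2FC of -1.38 (SE 0.23, edgeR adjusted p = 3.7e-04) and the step from CEpiLC to SOX2-ON a log2FC of -1.18 (SE 0.25, edgeR adjusted p = 0.00116). SOX2-ON held 2.93 times the Sox3 of SOX2-OFF (log2FC 1.55, SE 0.30, edgeR adjusted p = 0.00176). In the 6 comparisons Sox3 was called under every alternative run. Against EpiLC, Sox3 was 17.4-fold lower in SOX2-OFF (log2FC -4.12, edgeR adjusted p = 8.3e-08) and 5.93-fold lower in SOX2-ON (log2FC -2.57, edgeR adjusted p = 1.5e-06).

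Sox14, a SOXB2 gene known from interneurons, lies at chr9:99874106-99876170, minus strand (RefSeq, GRCm38.p6). Replicates 1, 2 and 3 held 0.24, 0.52 and 0.67 TPM for EpiLC, 0.21, 0.21 and 0.28 for CEpiLC, 0.89, 1.19 and 0.53 for SOX2-OFF, and 3.92, 2.95 and 3.35 for SOX2-ON. SOX2-ON lay above all other libraries, and SOX2-OFF lay above all CEpiLC libraries but overlapped EpiLC. The counts were small, at 3 to 10 in the wild-type libraries, 6 to 22 in SOX2-OFF and 51 to 73 in SOX2-ON. The filter on low counts asked for 0.553 CPM in 3 libraries of any group, and Sox14 reached this level in 3 SOX2-ON libraries, 2 SOX2-OFF libraries, 1 EpiLC library and 0 CEpiLC libraries. The order of mean levels was SOX2-ON (3.41 ± 0.488 TPM, SD, n = 3), SOX2-OFF (0.87 ± 0.331), EpiLC (0.477 ± 0.218) and CEpiLC (0.233 ± 0.0404). SOX2-ON exceeded SOX2-OFF by 3.64-fold (log2FC 1.86, SE 0.31, edgeR adjusted p = 6.1e-04). SOX2-OFF exceeded CEpiLC by 3.92-fold (log2FC 1.97, SE 0.43, edgeR adjusted p = 0.00212). SOX2-OFF and EpiLC were called apart at log2FC 1.00 (edgeR adjusted p = 0.0385), a call lost by DESeq2 (adjusted p = 0.0817), by limma-voom (adjusted p = 0.0508), with only those 6 libraries fitted (adjusted p = 0.078) and without EpiLC replicate 1 or 2 or SOX2-OFF replicate 1 or 2 (adjusted p 0.06 to 0.189). EpiLC and CEpiLC did not differ beyond their spread (log2FC -0.97, edgeR adjusted p = 0.119), and were called apart without EpiLC replicate 1 (log2FC -1.31, adjusted p = 0.0401).

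Sox21, a SOXB2 gene that promotes neuronal differentiation and is a known SOX2 target, lies at chr14:118233233-118237030, minus strand (RefSeq, GRCm38.p6). Replicates 1, 2 and 3 held 2.60, 0.35 and 0.38 TPM for EpiLC, 0.31, 0.80 and 0.53 for CEpiLC, 0.99, 1.12 and 1.14 for SOX2-OFF, and 109, 116 and 93.6 for SOX2-ON. In counts, the SOX2-ON libraries held 3927, 3884 and 3076, and the other 9 libraries held 10 to 105. Replicate 1 of EpiLC stood apart from its group, with 105 counts against 13 and 10. SOX2-ON exceeded CEpiLC by 199-fold (log2FC 7.64, SE 0.45, edgeR adjusted p = 4.5e-08), SOX2-OFF by 95.1-fold (log2FC 6.57, SE 0.42, edgeR adjusted p = 3.1e-07) and EpiLC by 86.0-fold (log2FC 6.43, SE 0.41, edgeR adjusted p = 4.6e-08). The size of the last difference depended on EpiLC replicate 1, without which the log2FC was 8.17 (edgeR adjusted p = 1.8e-09), and it was 7.06 by limma-voom. In the same comparison Sox2 differed by 1.34-fold.

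Among the other 3 groups Sox21 was near 1 TPM or below on average, with 1.11 ± 1.29 TPM in EpiLC, 1.08 ± 0.0815 in SOX2-OFF and 0.547 ± 0.245 in CEpiLC (SD, n = 3). SOX2-OFF lay above CEpiLC in all 3 libraries, but the difference did not pass the threshold (log2FC 1.07, 95% interval -0.42 to 2.55, edgeR adjusted p = 0.22) unless only those 6 libraries were fitted (log2FC 1.03, adjusted p = 0.042). The comparison of SOX2-OFF with EpiLC turned on the library that stood apart: it was not called with all libraries (log2FC -0.14, edgeR adjusted p = 0.844) and was called higher without EpiLC replicate 1 (log2FC 1.59, adjusted p = 0.00252). The comparison of CEpiLC with EpiLC changed direction without that library, from a log2FC of -1.21 (edgeR adjusted p = 0.154) to 0.53 (adjusted p = 0.336), and was called lower without EpiLC replicate 2 (log2FC -1.68, adjusted p = 0.0374).

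The nearest measured gene on the left of Sox21, Gpr180, 69001 bases away, did not rise in the same manner. It held 8.37 ± 0.175 TPM for EpiLC, 10.8 ± 0.98 for CEpiLC, 8.74 ± 0.512 for SOX2-OFF and 11.2 ± 0.657 for SOX2-ON (SD, n = 3). Gpr180 was higher in SOX2-ON than in SOX2-OFF by a log2FC of 0.31 (edgeR adjusted p = 0.0362) and was not called between SOX2-ON and CEpiLC (log2FC 0.03, edgeR adjusted p = 0.817). The right-hand neighbour, Mir6241, was at 0 in every library. Gm715, the left-hand neighbour of Sox3 at a distance of 342149 bases, was lower in CEpiLC than in EpiLC (log2FC -1.63, edgeR adjusted p = 0.0269) and was not called between SOX2-ON and SOX2-OFF (log2FC 1.09, edgeR adjusted p = 0.304). Sox1ot, which encloses Sox1 on the same strand, held too few counts to test, with 7, 10 and 2 in EpiLC and 2 in 1 SOX2-ON library.

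**Figure D2:**
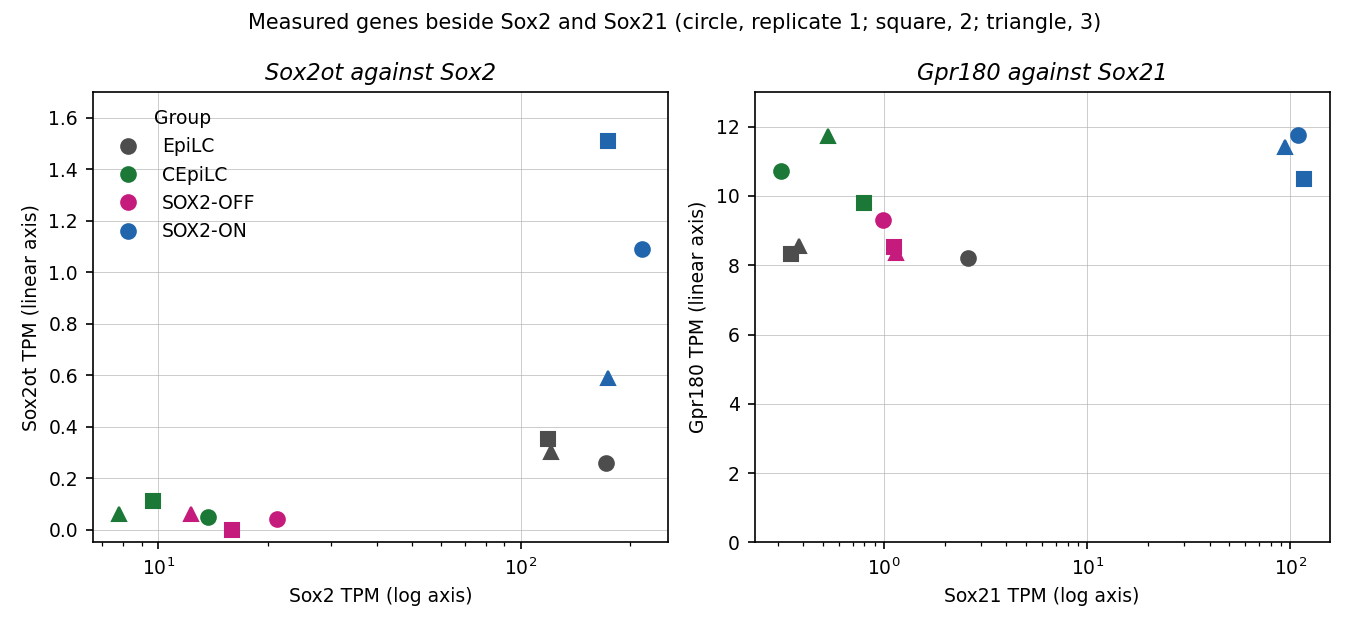
Level of Sox2ot against Sox2 and of Gpr180 against Sox21 in each of the 12 libraries, in TPM, with a log horizontal and a linear vertical axis and the groups by colour. Sox2ot was above 0.5 TPM only in the SOX2-ON libraries, at 0.59 to 1.51 TPM, while Gpr180 stayed between 8.22 and 11.8 TPM across the range of Sox21.

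The sequence before the start of the SOXB2 genes is shown because these were the members that rose in SOX2-ON above all other groups. The 250 bases before the annotated start are given 5′ to 3′ from RefSeq (GRCm38.p6), and capitals mark the letters CTTTGA or their reverse complement, the core of a TCF/LEF element.
Sox14 (chr9:99876171-99876420, minus strand): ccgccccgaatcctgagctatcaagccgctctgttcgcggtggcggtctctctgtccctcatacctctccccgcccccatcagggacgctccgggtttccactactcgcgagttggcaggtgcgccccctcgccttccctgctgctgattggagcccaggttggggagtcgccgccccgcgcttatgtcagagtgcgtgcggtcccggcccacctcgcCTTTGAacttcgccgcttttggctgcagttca
Sox21 (chr14:118237031-118237280, minus strand): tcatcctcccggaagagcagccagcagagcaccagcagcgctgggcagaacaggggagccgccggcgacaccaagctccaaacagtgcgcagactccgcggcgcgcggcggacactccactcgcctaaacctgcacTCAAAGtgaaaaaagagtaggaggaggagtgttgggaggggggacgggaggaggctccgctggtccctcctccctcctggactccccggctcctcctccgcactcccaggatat
Windows from 250 bases before to 50 after the start were searched on both strands for ACAATG and ACAAAG (SOX-type letters), ATGCAAAT (the octamer of POU factors) and CTTTGA, of which ACAAAG and the reverse complement of CTTTGA share the letters CAAAG. Of 32851 promoter windows in the table, 12.6% held ACAATG, 18.7% ACAAAG, 1.74% ATGCAAAT and 16.0% CTTTGA. Sox14 and Sox21 each held CTTTGA in 1 place, at -32 and -114 with the start at 0, and neither held the other letters. The Sox2 window (chr3:34649745-34650044) held ACAAAG at -206, and the Sox1 window (chr8:12395269-12395568) held ATGCAAAT at 18. No binding was measured in these libraries. Sox3 has no entry in the promoter table and was not searched.

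Set side by side, the 6 comparisons each called between 2 and 5 of the 5 members, against a background of all 14196 genes tested. In CEpiLC against EpiLC, 2 of 5 members were called (Sox2 and Sox3, both lower), where 42.2% of all genes were called, 22.1% higher and 20.1% lower. The same 2 had groups that did not overlap, as 52.3% of all genes did. In SOX2-OFF against CEpiLC, 4 were called against 48.5% of all genes, with Sox1 and Sox3 lower (24.9% of all genes) and Sox2 and Sox14 higher (23.6%). There 4 members did not overlap between groups (Sox1, Sox3, Sox14 and Sox21), against 55.3%. In SOX2-ON against CEpiLC, 4 were called against 56.5%, with Sox2, Sox14 and Sox21 higher (27.9% of all genes) and Sox3 lower (28.6%), and these 4 did not overlap, against 59.9%.

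In SOX2-ON against SOX2-OFF all 5 members were called higher and did not overlap, where 28.8% of all genes were called, 14.8% higher and 14.1% lower, and 43.8% did not overlap. The count includes Sox2, which the design changed, and Sox1, whose call was lost when 1 of 5 libraries was left out. In SOX2-ON against EpiLC, 4 were called against 59.8%, with Sox14 and Sox21 higher (30.7% of all genes) and Sox1 and Sox3 lower (29.1%). There 3 did not overlap (Sox3, Sox14 and Sox21), against 66.1%. In SOX2-OFF against EpiLC 4 were called against 62.1%, with Sox14 higher (31.5% of all genes) and Sox1, Sox2 and Sox3 lower (30.6%), and the 3 lower members did not overlap, against 69.2%. With backgrounds of 42.2 to 62.1% in the 5 comparisons other than SOX2-ON against SOX2-OFF, a count of 2 to 4 of 5 members is no result about the members. These comparisons share libraries and are not independent of each other. As the plot of fold changes shows, Sox3 was lower in SOX2-ON than in both wild-type groups although Sox2 was 17-fold higher in SOX2-ON than in CEpiLC.

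**Figure D3:**
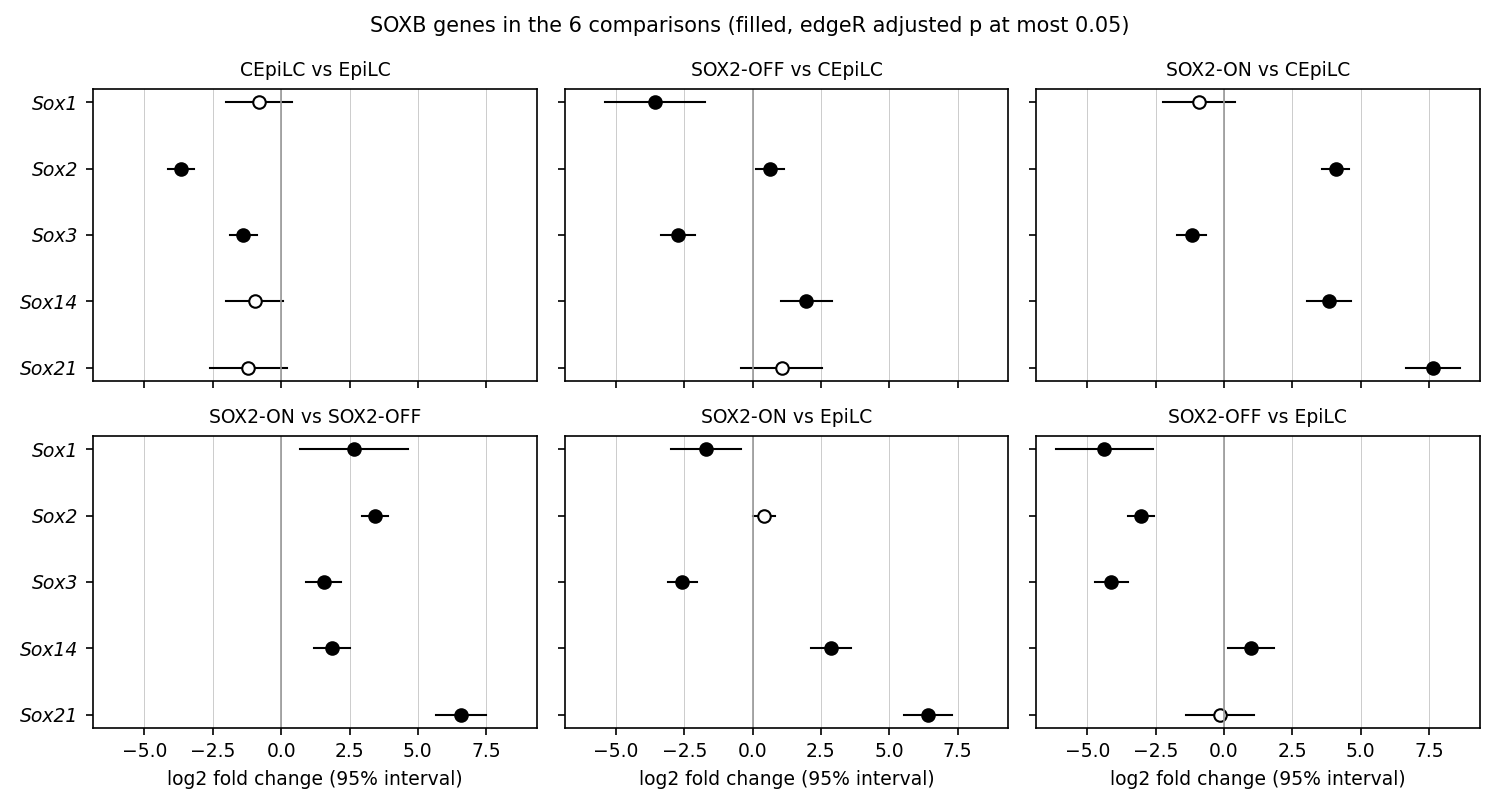
Log2 fold change with its 95% interval for the 5 SOXB genes in each of 6 comparisons, first group over second, with filled circles at an edgeR adjusted p of at most 0.05. All 5 circles are filled and to the right of 0 for SOX2-ON against SOX2-OFF, and the Sox21 values of 6.43 to 7.64 in the 3 comparisons of SOX2-ON are the farthest from 0 in their panels.

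The makeup of the SOXB transcript pool was compared in TPM. TPM scales by the annotated length, and the length of the transcript from the Sox2 cDNA transgene was not known here. Sox2 levels, shares and ratios of the TetON groups may therefore not be on the wild-type scale. The SOXB1 sum was 174 to 224 TPM in EpiLC and 181 to 227 in SOX2-ON, which overlapped, and 20.8 to 42.3 in CEpiLC and 14.6 to 25.1 in SOX2-OFF, which overlapped as well. Within similar sums the makeup differed. Sox2 made up 69.9 ± 5.86% of the SOXB1 sum in EpiLC (SD, n = 3) and 94.9 ± 1.28% in SOX2-ON, and it made up 32.8 ± 4.49% in CEpiLC and 83.9 ± 0.647% in SOX2-OFF. The ranges of these shares did not overlap between any of the 4 groups.

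Sox3 was the largest SOXB1 component in CEpiLC alone among the 4 groups, at 61.6 to 65.2% of the sum, with 1.64 to 2.29 Sox3 transcripts for each Sox2 transcript. It made up 21.9 to 34.3% in EpiLC, 15.1 to 16.3% in SOX2-OFF and 3.62 to 5.65% in SOX2-ON. Sox1 made up at most 6.23% in any library. The SOXB1 sum of SOX2-OFF was thus mostly Sox2 reads, which the counts do not assign to the locus or the transgene.

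The SOXB2 genes held 0.498 to 1.25% of the pool of all 5 genes for EpiLC, 1.22 to 3.76% for CEpiLC, 6.96 to 10.8% for SOX2-OFF and 33.3 to 39.2% for SOX2-ON. In SOX2-ON the ratio of Sox21 to Sox2 was 0.573 ± 0.0859 (SD, n = 3), against 0.00709 ± 0.00701 in EpiLC. Sox2 was not called different between these groups in the model of 12 libraries without a block, but was called higher in SOX2-ON under 4 alternatives. The groups also differ in line and in CHIR99021. The SOX2-ON pool of 278 to 340.5 TPM was thereby larger than that of EpiLC, at 175 to 227 TPM. The plot of the pool by library shows this as a block of Sox21 that the other groups lack. These shares are descriptions with no test.

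**Figure D4:**
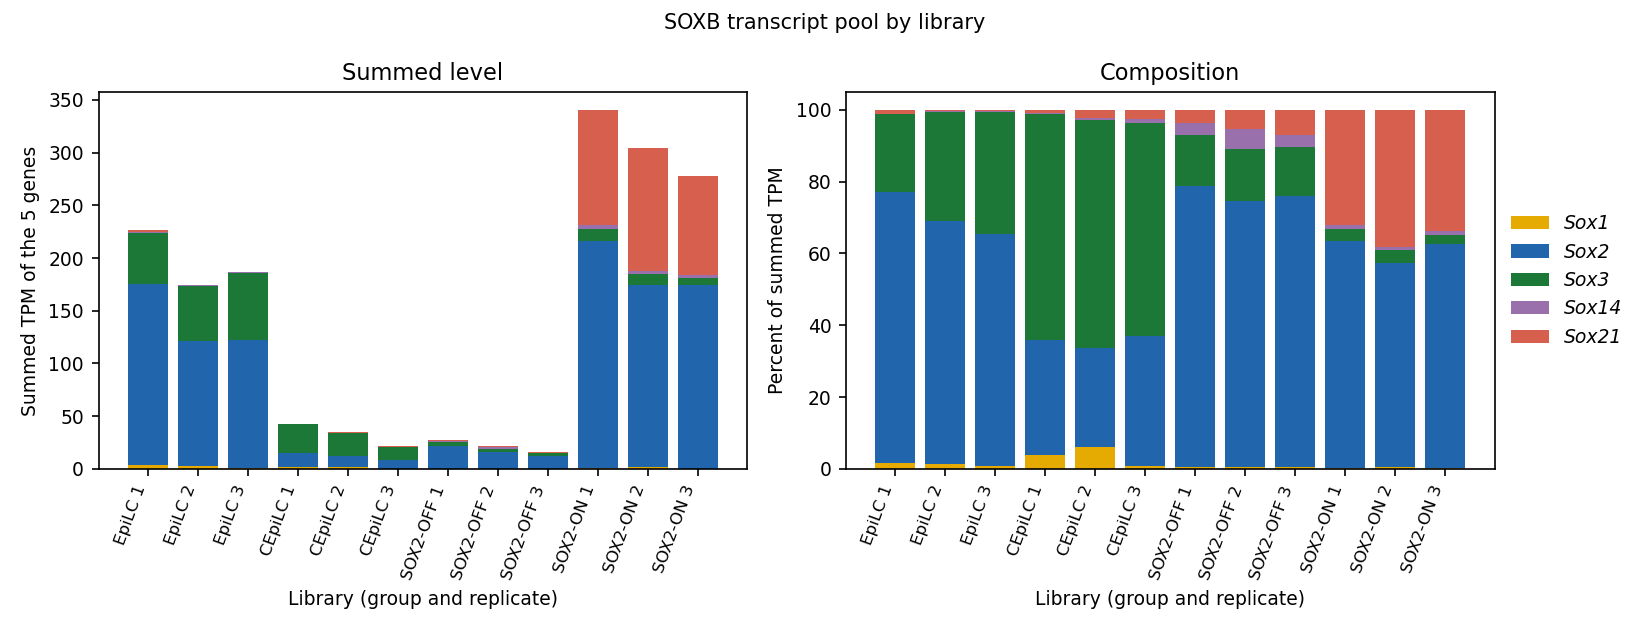
Stacked bars of the 5 SOXB genes in each of the 12 libraries, as TPM on the left and as a percent of their sum on the right. Sox3 is the largest block in the 3 CEpiLC libraries, and Sox21 takes about as much as the whole SOXB2 share of 33.3 to 39.2% in the 3 SOX2-ON libraries.

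Over the 12 libraries the log2 CPM of Sox1 and Sox3 had a Pearson r of 0.878 (Spearman rho 0.818), and Sox14 and Sox21 had an r of 0.86 (rho 0.664). Sox2 had an r of 0.63 with Sox21 and 0.365 with Sox3. These libraries fall into 4 groups and share culture conditions, so the values describe the pattern and carry no p. The genes with a course most like Sox21 were Adamts7, Osbpl11 and Dcun1d3 (r 0.966 to 0.978), and those most like Sox14 were Lats2 and Brd1 (r 0.976 and 0.973). For Sox2 they were Orc2, Anxa11 and Hs6st1 (r 0.979 to 0.988), for Sox3 Ncan, Ube2g1 and Camk2b (r 0.984 to 0.986), and for Sox1 Synrg, Tubgcp2 and Lrrk2 (r 0.949 to 0.964). Levels of Anxa11, for example, were 58.8, 23.4, 27.6 and 69.5 TPM on average in EpiLC, CEpiLC, SOX2-OFF and SOX2-ON.

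Of the 15 other SOX genes listed, 12 were tested. In SOX2-ON against SOX2-OFF, 4 were called higher (14.8% of all genes) and 1 lower (14.1%), with a median log2FC of 0.58 against -0.01 over all genes. Those higher were the SOXD genes Sox5 (log2FC 2.43, SE 0.51), Sox6 (3.54, SE 0.28) and Sox13 (2.79, SE 0.15), which lack a transactivation domain of their own, and Sox15 (1.66, SE 0.45), with edgeR adjusted p from 8.0e-08 to 0.0141. Sox9 was lower (log2FC -1.19). Mean levels of Sox13 were 21.7 TPM for EpiLC, 13.2 for CEpiLC, 4.83 for SOX2-OFF and 34.5 for SOX2-ON, and those of Sox6 were 0.33, 0.553, 0.243 and 3.03 TPM. Sox5 was near the floor, at 0.107, 0.0633, 0.05 and 0.273 TPM. All 3 SOXD genes were thus highest in SOX2-ON, as were Sox14, Sox21 and Sox15 (6.55 TPM against 1.06 to 1.89 in the other groups).

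In SOX2-OFF against CEpiLC, 2 of the 12 were higher (23.6% of all genes) and 4 lower (24.9%), with a median log2FC of -0.37 against -0.01 over all genes. The SOXF genes Sox7 and Sox17, factors of endoderm and endothelium, were higher by log2FC 6.09 (SE 0.44) and 5.27 (SE 0.45), with edgeR adjusted p of 3.9e-07 and 1.2e-06. They belong to the extraembryonic endoderm markers above, and they were also higher in SOX2-ON than in CEpiLC (log2FC 5.70 and 4.72). Between SOX2-ON and SOX2-OFF neither was called (log2FC -0.39 and -0.54). Sox9 (log2FC -1.60) and Sox13 (-1.45) fell in SOX2-OFF relative to CEpiLC. Chromosome-wide shifts between lines were not taken out of the values of listed genes. In CEpiLC against EpiLC, 0 of the 12 were higher (22.1% of all genes) and 4 lower (20.1%), namely Sox9 (log2FC -1.81), Sox12 (41.5 against 20.5 TPM), Sox13 (-0.71) and Sox4 (-0.50). In SOX2-ON against CEpiLC 6 were higher (27.9% of all genes) and 2 lower (28.6%), and against EpiLC 7 were higher (30.7%) and 3 lower (29.1%). In SOX2-OFF against EpiLC 2 were higher (31.5%) and 6 lower (30.6%). Sry was at 0 in every library.

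**Figure D5:**
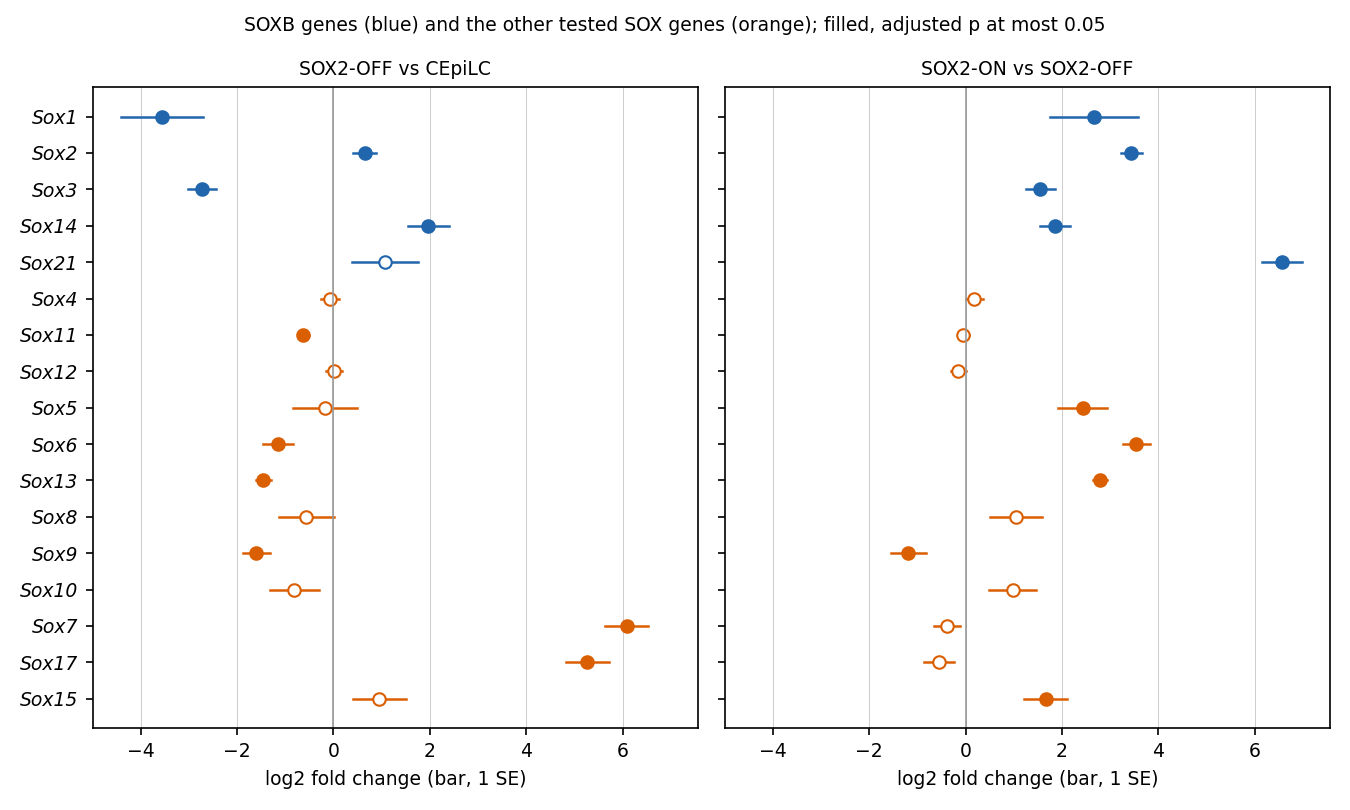
Log2 fold change with 1 SE for the 5 SOXB genes (blue) and the 12 other SOX genes tested (orange) in SOX2-OFF against CEpiLC and in SOX2-ON against SOX2-OFF, with filled circles at an edgeR adjusted p of at most 0.05. Sox7 and Sox17 stand far to the right only in the comparison that crosses lines, and Sox5, Sox6 and Sox13 stand to the right in the comparison within the TetON line.

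Of 10 partner factors of SOXB proteins, 8 were tested. Oct4 (Pou5f1), the partner of SOX2 in pluripotent cells, was not called in SOX2-ON against SOX2-OFF (log2FC 0.27) or in CEpiLC against EpiLC (-0.06). Pou3f1, a POU factor of the epiblast and neural plate, fell with Sox2 and Sox3 from EpiLC (98.7 ± 12 TPM) to CEpiLC (4.57 ± 1.92 TPM; log2FC -4.34, edgeR adjusted p = 6.5e-08) and was at 2.04 ± 0.627 TPM in SOX2-ON (SD, n = 3), so high Sox2 in SOX2-ON was not accompanied by EpiLC levels of Pou3f1. Pax6, a partner of SOX2 in lens development, was higher in SOX2-ON than in SOX2-OFF (log2FC 3.50, edgeR adjusted p = 5.7e-04) at a level of 0.593 ± 0.0451 TPM. This was below its EpiLC level of 1.59 ± 0.77 TPM (log2FC -1.52, edgeR adjusted p = 0.0014). In SOX2-ON against SOX2-OFF 3 partner factors were higher (Pax6, Sall4 and Tcf7l1) and 1 lower (Pou3f1), with a median log2FC of 0.50 over the 8 tested. The counts higher and lower were 0 and 4 in CEpiLC against EpiLC, 2 and 1 in SOX2-OFF against CEpiLC and 5 and 1 in SOX2-ON against CEpiLC. They were 2 and 3 in SOX2-ON against EpiLC and 1 and 5 in SOX2-OFF against EpiLC. Of all genes, 28.8% were called in SOX2-ON against SOX2-OFF and 42.2 to 62.1% in the other comparisons. The counts alone are therefore no result about the partner factors.

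All 8 genes listed for having enhancers bound by SOX2 with OCT4 were tested, of which Pou5f1 and Nanog are also on the list of partner factors. Utf1 and Spp1 were higher in SOX2-ON than in SOX2-OFF (log2FC 1.27 and 1.26, edgeR adjusted p = 1.5e-04 and 2.8e-04), and the other 6 were not called (median log2FC of the list 0.70). Utf1, a chromatin factor of pluripotent cells, held 269 ± 34.0 TPM for EpiLC, 16.3 ± 2.44 for CEpiLC, 49.5 ± 7.69 for SOX2-OFF and 124 ± 32.9 for SOX2-ON (SD, n = 3). Fgf4, the FGF ligand of pluripotent cells, was lower in SOX2-ON than in CEpiLC (log2FC -1.99, edgeR adjusted p = 8.8e-04), as it was in SOX2-OFF (log2FC -2.53). Higher and lower counts of the list were 2 and 3 in CEpiLC against EpiLC, 5 and 1 in SOX2-OFF against CEpiLC, 6 and 1 in SOX2-ON against CEpiLC, 4 and 2 in SOX2-ON against EpiLC, and 3 and 2 in SOX2-OFF against EpiLC. With 28.8% of all genes called in SOX2-ON against SOX2-OFF and 42.2 to 62.1% in the others, these counts alone are no result about the list. Naive pluripotency markers moved in the same libraries, with a summed level of 29.5 to 35.2 TPM for EpiLC, 24.0 to 53.0 for CEpiLC, 82.4 to 131 for SOX2-OFF and 198 to 260.3 for SOX2-ON, and their part was not tested.

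Of 16 neural genes, 14 were tested, among them Pax6, which is also a partner factor. In SOX2-ON against SOX2-OFF 6 were called higher (14.8% of all genes) and 2 lower (14.1%), with a median log2FC of 0.70. The proneural gene Neurog2 was at 0 in each SOX2-OFF library and at 1.92 ± 0.586 TPM in SOX2-ON, and Neurod1 rose from 3.02 ± 0.375 to 21.7 ± 5.47 TPM (log2FC 2.80, edgeR adjusted p = 1.4e-06). Zic1, a zinc-finger factor of the neural plate, rose by log2FC 3.08 (edgeR adjusted p = 1.7e-05), and Nes, the progenitor intermediate filament nestin, fell (log2FC -1.66). The summed level of the list nonetheless was lowest in SOX2-ON, at 197 to 213 TPM, against 227 to 325 in SOX2-OFF, 254 to 473 in CEpiLC and 299 to 400 in EpiLC. Higher and lower counts were 3 and 5 in CEpiLC against EpiLC, 2 and 4 in SOX2-OFF against CEpiLC, and 8 and 4 in SOX2-ON against CEpiLC. Against EpiLC they were 4 and 6 in SOX2-ON and 3 and 8 in SOX2-OFF. Across these comparisons 42.2 to 62.1% of all genes were called. In CEpiLC against EpiLC the largest falls were of Hesx1 (log2FC -8.40, SE 1.05) and Six3 (-7.25, SE 1.00), homeobox genes of the anterior neural plate.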

How the data were processed

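Messenger RNA of the 12 cultures was sequenced as stranded, single-end reads of 76 bases. According to the labels' processing notes and the study's methods, the authors trimmed reads with cutadapt (1.16), aligned them with STAR (2.5.2a) to mm10 and quantified RefSeq genes with RSEM (1.3.0). The authors deposited an expected count and a TPM value for each gene and library, with replicates kept apart. TPM, as the authors scaled it, was used for levels. Expected counts, as deposited, were rounded and tested with edgeR (4.0.16, limma 3.58.1, R 4.3.3) by the quasi-likelihood test, with TMM scaling, filterByExpr, 1 model of 4 groups over 12 libraries and Benjamini-Hochberg adjustment over 14196 genes. The threshold for a call was an adjusted p of 0.05. The study used DESeq2 (1.16.1), which was run here as an alternative (1.42.0). On simulated counts for SOX2-ON against SOX2-OFF over 14196 genes, edgeR recovered 82 of 100 genes changed by log2FC 1 and 94 of 100 changed by log2FC 2, with 11 other calls. Only these genes were changed, and counts were drawn with the spread that edgeR had estimated. No chromosome-wide shift or deviation shared by replicates was built in. The rates describe that simulation and not the real comparison, in which 4091 genes were called. The precision of each value is limited by library totals of 10408252 to 27337740 counts, and intervals from counts cover counting error only.

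Members and gene lists were chosen with earlier results of these data known. The genes named were the 5 members in every library, for each of 4 lists and comparison at most the 4 called genes with the largest change, for each member the 3 genes with the highest Pearson r of log2 CPM (10872 genes with a mean of at least 2), and overlapping or neighbouring genes, of which 1 gene is not reported here. Sox4, Sox9, Sox12 and Sox13 fell under this rule, as did the SOXD genes, while the values of Pou5f1, Sox7 and Sox17 between SOX2-ON and SOX2-OFF, Nes, the epiblast markers and the reading of Sry were added after the values were seen. Motif letters were counted in RefSeq promoter windows, and exons and transcripts came from GENCODE vM21 (GRCm38). Replicate pairs of a group differed by more than sampling noise (chi-square per degree of freedom 7.54 to 42.6). Same-numbered EpiLC and CEpiLC libraries deviated together weakly (r 0.12, 0.132 and 0.103 across genes). All 3 values passed 0.1, so the numbers were treated as pairs, on the values and not on any label. Differently numbered libraries were not set beside them, so pairing was not established. Each of the other 5 comparisons had at least 1 correlation under 0.1. For replicates 2 and 3, however, the values were 0.179 and 0.173 in SOX2-OFF against CEpiLC, and 0.201 and 0.163 in SOX2-ON against CEpiLC. Alternatives were RLE scaling, library size alone, 2 other filters, DESeq2, limma-voom, the 6 libraries compared alone, the replicate block, removal of chromosome-wide shifts between lines, a threshold of 0.01, and leaving out each replicate.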

Additional observations from a re-analysis of the deposited data

How the results depend on the processing

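Log2 fold changes of the 5 members in 6 comparisons kept their direction and their side of the threshold in 431 of 470 alternatives, and 19 of the 30 did so in all of theirs. The direction reversed in 3, all of them for Sox21: against EpiLC, SOX2-OFF read 0.51 by limma-voom and 1.59 without EpiLC replicate 1, and CEpiLC read 0.53 without EpiLC replicate 1. Over all libraries left out in turn, these values ran from -0.61 to 1.59 and from -1.68 to 0.53. A further 27 lost the call, mainly for Sox1, for Sox2 between SOX2-OFF and CEpiLC, and for Sox14 between SOX2-OFF and EpiLC. The call was gained in 9, of which 4 were for Sox2 between SOX2-ON and EpiLC. With the threshold at 0.01, 3968 genes were called in CEpiLC against EpiLC in place of 5994, and 2437 in SOX2-ON against SOX2-OFF in place of 4091. With chromosome-wide shifts taken out, 5998 genes were called in SOX2-OFF against CEpiLC in place of 6885, and 7181 in SOX2-ON against CEpiLC in place of 8020. Leaving out each replicate gave 2 to 3 members called in CEpiLC against EpiLC, 3 to 4 in SOX2-OFF against CEpiLC, 4 to 5 in SOX2-ON against CEpiLC and against SOX2-OFF, and 3 to 4 in both comparisons of the TetON groups with EpiLC. Of the 14196 genes tested, these runs called 4816 to 5416, 5927 to 6626, 7201 to 7533 and 3076 to 3908 in that order. Against EpiLC they called 7638 to 7954 in SOX2-ON and 7974 to 8186 in SOX2-OFF.

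Only in CEpiLC against EpiLC did all 3 correlations of same-numbered libraries pass 0.1. There the replicate block called 3 members and 6491 genes in place of 2 and 5994. In the other comparisons at least 1 correlation was under 0.1, so pairing by number was left undecided. The block gave 4 members and 7285 genes in SOX2-OFF against CEpiLC, and 4 and 8390 in SOX2-ON against CEpiLC. It gave 5 and 4625 in SOX2-ON against SOX2-OFF, and 5 and 8837 in SOX2-ON against EpiLC (Sox2 called, log2FC 0.44). In SOX2-OFF against EpiLC it gave 3 and 9143 (Sox14 no longer called, edgeR adjusted p = 0.0529). In expected counts not scaled by length, the share of the SOXB1 sum was 57.2% for Sox3 in CEpiLC, and 85.9% for Sox2 and 13.1% for Sox3 in SOX2-OFF, against 63.5, 83.9 and 15.5% in TPM. Of the 3 genes most like each member by Pearson r, 1 stayed among the first 3 by Spearman rho for Sox3 (Camk2b) and 0 for Sox1, Sox2, Sox14 and Sox21, so those names depend on the measure. Depth limits Sox1 in SOX2-OFF (2 to 5 counts), Sox14 in wild-type libraries (3 to 10 counts) and Sox2ot, and no read-level separation of transgene and endogenous Sox2 was possible from gene counts.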
